A study of Mus musculus with 16 samples.

Results

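The 8 genes described here are the mouse MHC class II genes H2-Aa, H2-Ab1, H2-Eb1, H2-DMa, H2-DMb1 and H2-DMb2, the invariant chain gene Cd74 and the class II transactivator gene Ciita. They were found by symbol among 55573 gene records, each symbol matching 1 record, and all 8 were among the 13107 genes with enough counts to be tested. The series holds 16 RNA-seq libraries of the mouse macrophage-like line RAW264.7, namely 4 each of ORP5/8 KD, ATP11A/C KD, CDC50A KD and Parental cells. ORP5 and ORP8 are lipid transfer proteins that move phosphatidylserine to the plasma membrane at contacts with the endoplasmic reticulum. ATP11A is a flippase that moves phosphatidylserine to the inner leaflet, and CDC50A is the subunit that such flippases need to leave the endoplasmic reticulum. All cells were grown in complete medium and collected on the day after plating, with no stimulus named. The library names of the knockdown groups begin with "sh" and those of Parental with "Ctrl", with no construct named. A knockdown construct aimed at no gene was not analysed here. The labels do not say whether a knockdown line was a pool or a single clone, nor whether numbered libraries are separate cultures. The p-values therefore rest on library-to-library spread, which may be technical.

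MHC class II molecules are pairs of an α and a β chain that present peptides from the endosomal pathway to CD4+ T cells. The invariant chain Cd74 escorts new class II molecules to endosomes, and the DM heterodimer then helps to exchange its remnant for a peptide. Ciita is a coactivator that does not bind DNA itself. It joins a complex of RFX, CREB and NF-Y proteins on the X and Y boxes of class II promoters, and it is the switch for class II transcription in most cells. Macrophages carry little class II until interferon-γ induces Ciita.

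In ORP5/8 KD cells Ciita and the classical chain genes H2-Aa, H2-Ab1 and H2-Eb1 were at 1.21 to 3.19 CPM (counts as a share of the library's total, scaled up to a fixed total) in every library. In the other 12 libraries none of these 4 genes exceeded 0.321 CPM. The DM genes were also higher in ORP5/8 KD than in Parental cells, by smaller factors, while Cd74 was abundant in every group and was not called different between ORP5/8 KD and Parental. ATP11A/C KD and CDC50A KD cells had more H2-Ab1, H2-DMa and Cd74 than Parental cells and showed no such level of Ciita. These are low levels even where they were higher. The largest Ciita value, 3.19 CPM, rested on 119 counts.

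Proximal promoters of several class II genes held an X and a Y core. RefSeq promoter windows of the GRCm38.p6 build were available for 5 of the 8 genes, namely H2-Aa, H2-Eb1, H2-DMa, H2-DMb1 and H2-DMb2, and not for H2-Ab1, Ciita and Cd74. Windows were searched on both strands for the X core CTNNNAAC followed within 15 to 35 bases by the Y core GATTGG, letters chosen after the members' promoters had been read. The stretches printed here run 5′ to 3′ on the gene's strand, with the X and Y cores in capitals, and are shown because they carry the element that Ciita's partners are known to use. H2-Aa is at chr17:34287852-34287937 on the minus strand. On the plus strand are H2-Eb1 at chr17:34305743-34305827, H2-DMb1 at chr17:34153064-34153149 and H2-DMb2 at chr17:34145093-34145178.
H2-Aa: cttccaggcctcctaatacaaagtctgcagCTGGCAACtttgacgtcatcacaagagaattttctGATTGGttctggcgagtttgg
H2-Eb1: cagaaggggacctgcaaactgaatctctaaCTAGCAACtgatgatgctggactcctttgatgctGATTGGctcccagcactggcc
H2-DMb1: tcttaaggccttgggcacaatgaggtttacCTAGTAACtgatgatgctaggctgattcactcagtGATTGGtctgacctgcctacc
H2-DMb2: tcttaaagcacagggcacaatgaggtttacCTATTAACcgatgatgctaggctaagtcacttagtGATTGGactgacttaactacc

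The cores stood 27, 26, 27 and 27 bases apart in H2-Aa, H2-Eb1, H2-DMb1 and H2-DMb2, and the X core began 84, 94, 97 and 126 bases before the RefSeq start. Of all 32851 promoter windows, 0.323% held such an ordered pair, 41.1% held the X core alone and 16.1% the Y core alone. Since the letters came from the members, these shares are a description and no test. Neither of the 2 windows of H2-DMa held the pair, which says only that these letters are not in those windows. The windows of H2-DMb1 and H2-DMb2 were identical at 73 of 86 positions, or 84.9%. For these genes the GENCODE models, whose coordinates are given below, start upstream of the RefSeq start. The printed stretch of H2-DMb2 lies within its GENCODE model, and that of H2-DMb1 spans the start of its model. The windows of the other class II genes H2-Oa and H2-Eb2 did not hold the pair. H2-Ob, the β chain of the DO molecule that restrains DM, held it, and its level was 0.0787 ± 0.0773 CPM in ORP5/8 KD and 0.0154 ± 0.0308 CPM in Parental cells (SD, n = 4 each), too low to be tested.

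The libraries held 24020891 to 41543050 counts each. Levels are given as CPM after scaling by the trimmed mean of M-values. A gene was called different at an adjusted p under 0.05 in edgeR's quasi-likelihood test with Benjamini-Hochberg adjustment over all 13107 genes. Every adjusted p here comes from that test unless another is named. Ciita, H2-Aa, H2-Ab1, H2-Eb1, H2-DMb1 and H2-Ea-ps had enough counts to be tested only through the ORP5/8 KD libraries. Their adjusted p for ORP5/8 KD against any other group is therefore a description of a difference that their selection required. In bulk RNA, more cells expressing a gene and more RNA per cell cannot be told apart. The mitochondrial share of counts was 1.52 to 1.77% in ORP5/8 KD, 1.36 to 1.78% in ATP11A/C KD, 1.42 to 1.76% in CDC50A KD and 1.08 to 1.26% in Parental libraries, and its part in the results was not tested. ATP11A/C KD library 1 stood farthest from its replicates, with a chi-square per gene of 20.8 to 45 against them and 4.85 to 18.4 for every other pair of replicates. Of the targeted genes, Osbpl8, which encodes ORP8, was at 29.4% of Parental in ORP5/8 KD cells, but ATP11A/C KD cells were also at 37.6% and CDC50A KD cells at 34.5%. Osbpl5, which encodes ORP5, was at 0.14 to 0.198 CPM on average in every group. Atp11a was at 34.9% of Parental in ATP11A/C KD cells, and Tmem30a, which encodes CDC50A, was at 78.6% in CDC50A KD cells.

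Ciita, at chr16:10480059-10528418 on the plus strand, was counted 104, 132, 91 and 119 times in the ORP5/8 KD libraries 1 to 4, against 1, 6, 2 and 2 times in Parental. The counts were 1, 0, 2 and 1 in ATP11A/C KD libraries and 1, 0, 0 and 2 in CDC50A KD libraries. Every ORP5/8 KD library was far above each of the other 12, which were all at or near 0. Ciita averaged 2.81 ± 0.431 CPM in ORP5/8 KD and 0.0818 ± 0.0576 CPM in Parental cells (SD, n = 4 each), a log2 fold change of 5 ± 0.353 (SE, adjusted p = 1.44e-10). In summed counts per effective library size the ratio was 33.2, with a 95% interval of 18.4 to 66.9 that covers counting error only. Ciita was also higher in ORP5/8 KD than in the other knockdowns, by a count ratio of 104 over ATP11A/C KD (interval 40.2 to 382, adjusted p = 4.8e-11) and of 125 over CDC50A KD (42.5 to 609, adjusted p = 3.79e-11).

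At the low end, Ciita averaged 0.0259 ± 0.0199 CPM in ATP11A/C KD and 0.0192 ± 0.0244 CPM in CDC50A KD cells (SD, n = 4 each). Neither differed from Parental by the test, with log2 fold changes of -1.52 ± 0.732 (adjusted p = 0.11) and -1.76 ± 0.781 (adjusted p = 0.0658), on 4 and 3 counts against 11. The second was called lower without Parental library 1 (-2.02, adjusted p = 0.0392) or without CDC50A KD library 4 (-2.65, adjusted p = 0.0305). At this depth ATP11A/C KD, CDC50A KD and Parental cells thus had no detectable order. Gene-level counts do not separate the alternative promoters of Ciita. Dexi overlaps Ciita on the opposite strand and was not called different, with 6.28 CPM in ORP5/8 KD and 5.86 CPM in Parental cells (log2 fold change 0.09, adjusted p = 0.617).

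H2-Aa, the α chain of the I-A molecule, lies at chr17:34282744-34287823 on the minus strand. It had 69, 80, 53 and 45 counts in ORP5/8 KD libraries and 4, 2, 1 and 1 in Parental libraries. In ATP11A/C KD it had 3 counts in library 1 and 0 in the others, and in CDC50A KD 1 count in library 4 and 0 in the others. The ORP5/8 KD libraries therefore did not overlap any other group. The averages were 1.55 ± 0.341 CPM in ORP5/8 KD and 0.061 ± 0.0427 CPM in Parental cells (SD, n = 4 each), with a log2 fold change of 4.58 ± 0.454 (SE, adjusted p = 3.43e-08) and a count ratio of 25.3 (12.6 to 59.2).

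H2-Aa was not called in the other comparisons with Parental. The log2 fold change was -1.45 ± 0.926 in ATP11A/C KD (adjusted p = 0.237) and -2.57 ± 1.12 in CDC50A KD cells (adjusted p = 0.0625). All 4 CDC50A KD libraries were below the lowest Parental library, but the difference is between 1 count and 8. It passed the threshold without CDC50A KD library 4 (-4.21, adjusted p = 0.0371), without ATP11A/C KD library 1 (-2.57, adjusted p = 0.039) and with DESeq2's Wald test (-2.73, adjusted p = 0.0422). The value in ATP11A/C KD passed without ATP11A/C KD library 1, which held all its counts (-4.20, adjusted p = 0.0199).

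H2-Ab1, the β chain of I-A, lies at chr17:34257689-34269419 on the plus strand and had 105, 102, 123 and 103 counts in ORP5/8 KD libraries, against 2, 3, 1 and 3 in Parental libraries. It averaged 2.73 ± 0.265 CPM and 0.0675 ± 0.0242 CPM in these groups (SD, n = 4 each). Its adjusted p was 2.2e-12 for a log2 fold change of 5.23 ± 0.289 (SE) and a count ratio of 39.4 (20.5 to 86.7). Alone among the 3 chain genes it was also called higher in the other knockdowns. It had 13, 5, 10 and 7 counts in ATP11A/C KD libraries (0.232 ± 0.0707 CPM, log2 fold change 1.72 ± 0.4, adjusted p = 0.00178). It had 10, 5, 7 and 6 counts in CDC50A KD libraries (0.211 ± 0.0432 CPM, log2 fold change 1.55 ± 0.415, adjusted p = 0.00521). Each of these 8 libraries was above all 4 Parental libraries. Both comparisons use the same Parental libraries, which hold 9 counts in all, and whether H2-Ab1 responded differently from H2-Aa and H2-Eb1 was not tested.

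The order of H2-Ab1 levels was therefore ORP5/8 KD, then ATP11A/C KD and CDC50A KD, then Parental. ORP5/8 KD was above ATP11A/C KD by 3.51 ± 0.23 (adjusted p = 8.6e-11) and above CDC50A KD by 3.68 ± 0.239 (adjusted p = 4.81e-11) on the log2 scale. The middle neighbours, CDC50A KD and ATP11A/C KD, were not separated (-0.17 ± 0.318, adjusted p = 0.753).

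H2-Eb1, the β chain of the I-E molecule, lies at chr17:34305867-34316674 on the plus strand. It had 64, 79, 75 and 67 counts in ORP5/8 KD libraries and 1, 1, 5 and 0 in Parental libraries. The CDC50A KD libraries had 2, 0, 0 and 0 counts and the ATP11A/C KD libraries none. ORP5/8 KD cells thus stood apart from every other library and varied little among themselves, at 1.79 ± 0.0761 CPM, against 0.0596 ± 0.0816 CPM in Parental cells (SD, n = 4 each). The log2 fold change was 4.96 ± 0.485 (SE, adjusted p = 1.16e-07) and the count ratio 33.3 (16 to 83.6). Against ATP11A/C KD cells H2-Eb1 was at least 88.3-fold higher, taking 3 counts over the group as the limit that a count of 0 allows, which is 0.0203 CPM (adjusted p = 1.86e-08). Against CDC50A KD cells the count ratio was 120 (32.9 to 994, adjusted p = 3.46e-08).

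The 0 counts of H2-Eb1 in ATP11A/C KD cells, against 7 in Parental cells, were called lower (adjusted p = 0.0342), at least 2.65-fold by the same limit. The groups overlapped, since Parental library 4 also had none. The call rested on Parental library 3, which held 5 of the 7 counts, and was lost without it (adjusted p = 0.154). It was also lost without any 1 of the ATP11A/C KD libraries (adjusted p = 0.0511 to 0.0621) and with the replicate number as a block (adjusted p = 0.0557).

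The α chain of I-E is annotated as H2-Ea-ps, a polymorphic pseudogene, because the reference strain C57BL/6 carries a defective copy. RAW264.7 came from a mouse of BALB/c background, whose I-E α chain is functional. H2-Ea-ps is no member of the 8 but sits beside them. It too had enough counts to be tested only through the ORP5/8 KD libraries. It had 58, 66, 69 and 52 counts in ORP5/8 KD libraries and 0, 0, 3 and 2 in Parental libraries, a log2 fold change of 5.19 ± 0.502 (adjusted p = 2.33e-08). All 4 chain genes of I-A and I-E were thus counted in every ORP5/8 KD library. Reads were aligned to the C57BL/6 reference, and the part that differences between class II alleles play in these levels was not tested.

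Per length, levels of the chains within ORP5/8 KD cells can be set side by side. In CPM per kilobase of exons H2-Ab1 was at 1.06 ± 0.103, H2-Eb1 at 0.922 ± 0.0392, H2-Ea-ps at 1.49 ± 0.118, H2-Aa at 0.407 ± 0.0897 and Ciita at 0.295 ± 0.0452 (SD, n = 4). The level of H2-Ab1 per kilobase was 2.6 times that of its partner H2-Aa and 1.15 times that of H2-Eb1. All these levels rest on union exon models, which overstate the length of a gene with several transcripts.

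**Figure D1:**
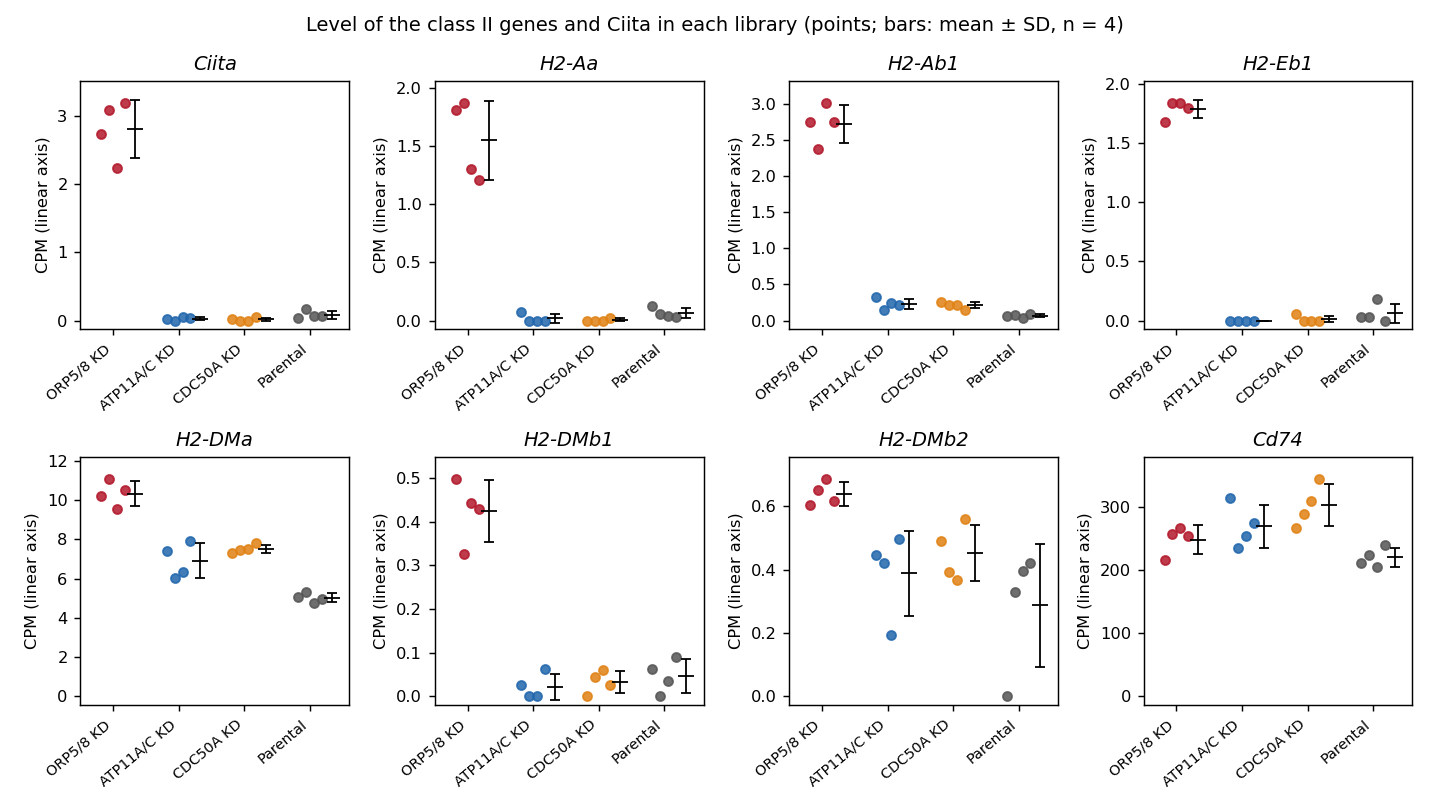
Level of each gene in CPM (linear axis, a scale of its own in each panel) in the 4 libraries of ORP5/8 KD, ATP11A/C KD, CDC50A KD and Parental cells; points are libraries in order of their number and bars the mean ± SD. Ciita, H2-Aa, H2-Ab1, H2-Eb1 and H2-DMb1 are near 0 outside ORP5/8 KD, while Cd74 is between 206 and 346 CPM in every library.

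The DM genes encode the peptide exchange factor. H2-DMa, its α chain at chr17:34119541-34139101 on the plus strand, had 389, 474, 388 and 392 counts in ORP5/8 KD libraries and 165, 194, 132 and 164 in Parental libraries. There were 300, 200, 264 and 255 counts in ATP11A/C KD and 284, 171, 245 and 306 in CDC50A KD libraries. H2-DMa was thus detected in all 16 libraries, and every knockdown library was above every Parental library in CPM. It averaged 10.3 ± 0.637 CPM in ORP5/8 KD, 6.92 ± 0.894 in ATP11A/C KD, 7.52 ± 0.201 in CDC50A KD and 5.02 ± 0.232 in Parental cells (SD, n = 4 each). The log2 fold changes over Parental were 1.04 ± 0.0899 (adjusted p = 4.06e-09), 0.46 ± 0.0921 (adjusted p = 0.000455) and 0.58 ± 0.0924 (adjusted p = 2.53e-05) in that order of knockdowns. ORP5/8 KD cells also had more H2-DMa than ATP11A/C KD cells (0.58 ± 0.0865, adjusted p = 1.55e-05) and CDC50A KD cells (0.46 ± 0.0867, adjusted p = 0.000142). CDC50A KD and ATP11A/C KD did not differ beyond their spread (0.12 ± 0.0891, adjusted p = 0.332).

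H2-DMb1 and H2-DMb2 are neighbouring copies of the DM β chain gene, at chr17:34153072-34160230 and chr17:34143307-34151555 on the plus strand. Their longest coding transcripts were identical at 1010 of 1157 aligned positions, or 87.3%, and 6 libraries of each gene carried counts with decimals, so reads may be split between the copies and both are uncertain. H2-DMb1 had 18.61, 14.16, 17.92 and 15.61 expected counts in ORP5/8 KD and 2, 0, 1 and 3 in Parental libraries. It had 1.31, 0, 0 and 2 in ATP11A/C KD and 0, 1, 2 and 1.15 in CDC50A KD libraries. As with the chain genes, all 4 ORP5/8 KD libraries were above the other 12. The averages were 0.424 ± 0.0719 CPM in ORP5/8 KD and 0.047 ± 0.0384 CPM in Parental cells (SD, n = 4 each), with a log2 fold change of 3.10 ± 0.582 (SE, adjusted p = 0.000166) and a count ratio of 9.14 (3.98 to 25.8). Values over Parental were -1.06 ± 1 in ATP11A/C KD (adjusted p = 0.443) and -0.57 ± 0.959 in CDC50A KD cells (adjusted p = 0.651).

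H2-DMb2 had 23.39, 27.84, 28.08 and 23.39 expected counts in ORP5/8 KD and 0, 12, 11 and 14 in Parental libraries. There were 17.69, 14, 8 and 16 in ATP11A/C KD and 19, 9, 12 and 21.85 in CDC50A KD libraries. Parental library 1 alone had none. H2-DMb2 averaged 0.641 ± 0.0377 CPM in ORP5/8 KD and 0.287 ± 0.195 CPM in Parental cells (SD, n = 4 each), a log2 fold change of 1.16 ± 0.434 (adjusted p = 0.0335). That call was lost without Parental library 1 (0.76, adjusted p = 0.0589) and without ORP5/8 KD library 2, 3 or 4 (adjusted p = 0.0566, 0.0625 and 0.0549). No other difference of H2-DMb2 was called, although its 4 ORP5/8 KD libraries were above all libraries of the other groups. The difference from ATP11A/C KD was 0.74 ± 0.406 (adjusted p = 0.162, and 0.0472 without Parental library 1). Per kilobase the level of H2-DMa in ORP5/8 KD cells was 11.9 times that of H2-DMb1 and 8.17 times that of H2-DMb2.

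Cd74, the invariant chain gene at chr18:60803848-60812652 on the plus strand, was the abundant member. It was at 216, 258, 268 and 254 CPM in ORP5/8 KD libraries, 315, 236, 254 and 275 CPM in ATP11A/C KD libraries and 268, 289, 311 and 346 CPM in CDC50A KD libraries, against 211, 224, 206 and 241 CPM in Parental libraries. The groups lay close together, and the CDC50A KD libraries alone were all above Parental. Cd74 averaged 249 ± 22.8 CPM in ORP5/8 KD, 270 ± 34 in ATP11A/C KD, 304 ± 33.1 in CDC50A KD and 220 ± 15.8 in Parental cells (SD, n = 4 each). It was higher than Parental in CDC50A KD cells (log2 fold change 0.46 ± 0.0852, adjusted p = 0.000133) and in ATP11A/C KD cells (0.29 ± 0.0851, adjusted p = 0.00958), where the call was lost without ATP11A/C KD library 1 (0.21, adjusted p = 0.0506).

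In ORP5/8 KD cells Cd74 was not called, with a log2 fold change over Parental of 0.18 ± 0.0851 (adjusted p = 0.0963). It was called higher with upper-quartile scaling (0.25, adjusted p = 0.0179), without a low-count filter (adjusted p = 0.0286), in a fit of only these groups (adjusted p = 0.0299) and without ORP5/8 KD library 1 (0.25, adjusted p = 0.0178). Against CDC50A KD cells Cd74 was lower in ORP5/8 KD cells (-0.28 ± 0.0849, adjusted p = 0.00718), a call lost without CDC50A KD library 4 (-0.20, adjusted p = 0.0528). ORP5/8 KD and ATP11A/C KD cells were not separated (-0.12, adjusted p = 0.3). CDC50A KD and ATP11A/C KD cells differed by 0.17 ± 0.0848 (adjusted p = 0.151), and by 0.24 (adjusted p = 0.0292) without ATP11A/C KD library 1. Cd74 and the chain genes were far apart in level: per kilobase Cd74 was 140 times H2-Ab1 in ORP5/8 KD cells, 1780 times in ATP11A/C KD cells, 2200 times in CDC50A KD cells and 4980 times in Parental cells.

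Over the 8 genes, ORP5/8 KD against Parental had 7 called higher and none lower, where 46.2% of all tested genes were called, 22% higher and 24.3% lower. With upper-quartile scaling these calls over all genes split into 4270 higher and 2479 lower, against 2878 higher and 3181 lower. ORP5/8 KD against ATP11A/C KD had 6 members higher and none lower (38.7% of all genes called, 18.2% higher and 20.4% lower), and against CDC50A KD 6 higher and Cd74 lower (56.8% called, 27.5% higher and 29.4% lower). With upper-quartile scaling there were 3095 higher and 2018 lower genes over ATP11A/C KD and 4463 higher and 2891 lower genes over CDC50A KD, where TMM scaling gave 2392 and 2678, and 3603 and 3848. ATP11A/C KD against Parental had 3 members higher and H2-Eb1 lower (37.6% called, 17.4% higher and 20.2% lower), and CDC50A KD against Parental 3 higher and none lower (50.4% called, 24.3% higher and 26.1% lower). CDC50A KD against ATP11A/C KD had 0 of 8 called in edgeR's and in DESeq2's test, where edgeR called 26.2% of all genes, and 0 of 8 had an unadjusted p under 0.05. There the adjusted p was 0.568 for H2-Aa, 0.289 for H2-Eb1, 0.775 for H2-DMb1 and 0.698 for H2-DMb2, on 0 to 62 counts a group, so these neighbours had no detectable order. H2-Aa, H2-Ab1, H2-Eb1, Ciita and H2-DMb1 passed the low-count filter only through the ORP5/8 KD libraries and so had to differ to be tested. The counts of members called for ORP5/8 KD, and the adjusted p of these genes there, are therefore a description. H2-DMb2 passed it in ORP5/8 KD and CDC50A KD, and Cd74 and H2-DMa in all 4 groups. The comparisons with Parental share its 4 libraries.

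**Figure D2:**
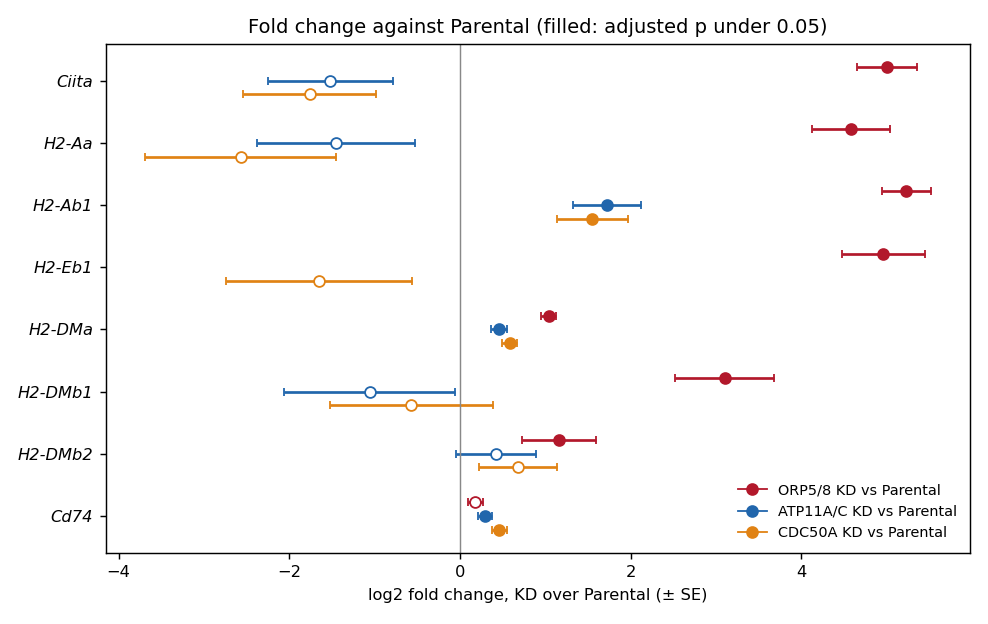
Log2 fold change of each gene over Parental (horizontal axis, ± SE) in each of the 3 knockdowns; filled points have an adjusted p under 0.05, and H2-Eb1 in ATP11A/C KD is not drawn because it had 0 counts. Ciita and the chain genes lie between 4.58 and 5.23 in ORP5/8 KD, and H2-Ab1, H2-DMa and Cd74 are the genes called higher in the other knockdowns.

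Neighbouring genes of the class II region differed in direction. The class II region from H2-Oa to H2-Ea-ps spans 252 kb of chromosome 17 and holds 22 gene records, of which 13 were tested. In ORP5/8 KD cells H2-DMa, H2-DMb2 and H2-DMb1 were higher than in Parental cells, and so were H2-Ab1, H2-Aa, H2-Eb1 and H2-Ea-ps farther on. Between these blocks sit the class I peptide transporter and immunoproteasome genes, all of which were lower. Tap1 was at 35 ± 2.66 CPM in ORP5/8 KD and 96.8 ± 4.19 CPM in Parental cells (SD, n = 4 each, log2 fold change -1.47 ± 0.0593, adjusted p = 1.01e-14), and the log2 fold changes of Psmb9, Psmb8 and Tap2 were -1.28, -1.22 and -0.87. H2-Oa, the α chain of DO, was not called (0.57 ± 0.386, adjusted p = 0.24), nor was the chromatin gene Brd2, which overlaps H2-DMa on the opposite strand (-0.03 ± 0.047, adjusted p = 0.683). H2-Eb2 had 0 counts in all libraries. The libraries were stranded, and the 4 antisense records of the region held 0 counts in all.

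**Figure D3:**
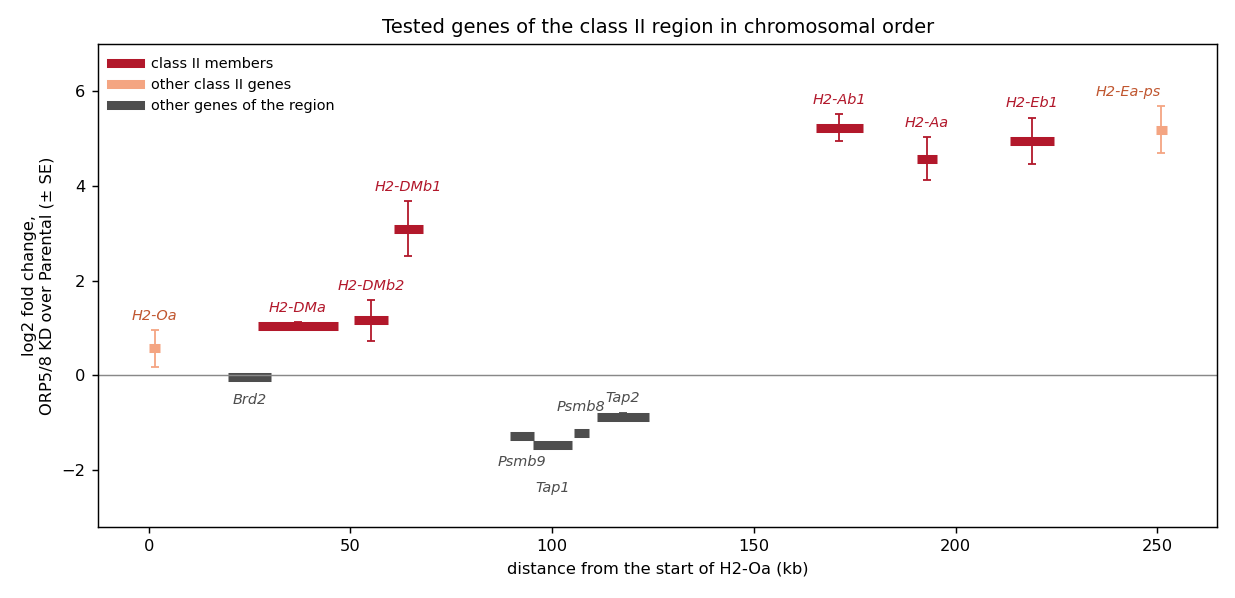
Log2 fold change in ORP5/8 KD over Parental cells (vertical axis, ± SE) of the 13 tested genes, drawn over their extent as distance in kb from the start of H2-Oa. The DM and chain genes are above 0 on both sides of Psmb9, Tap1, Psmb8 and Tap2, which are between -1.47 and -0.87.

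Most other genes of peptide loading and processing were lower in ORP5/8 KD cells. Of 16 tested genes of this list, 4 were higher and 11 lower in ORP5/8 KD than in Parental cells. Of all tested genes 22% were called higher and 24.3% lower, so the share higher is near the background. The median log2 fold change of the list was -0.31, against 0.02 over all tested genes. Ctss, the cathepsin that trims the invariant chain, was at 531 ± 9.52 CPM in ORP5/8 KD and 855 ± 15.7 CPM in Parental cells (SD, n = 4 each, log2 fold change -0.69 ± 0.0407, adjusted p = 7.31e-12). Sppl2a, the protease that cuts the last membrane stub of the invariant chain, fell by 0.93 on the log2 scale (adjusted p = 6.62e-13). The lysosomal proteases Ctsb and Ctsd fell by 0.68 and 0.89, and the tetraspanins Cd9 and Cd63 by 0.53 and 0.34. H2-Ea-ps, 1 of the 4 called higher, had enough counts to be tested only through the ORP5/8 KD libraries. The others called higher were the protease Lgmn (0.11), the lysosomal regulator Tfeb (0.29) and the DNA sensor Tlr9 (0.39), named after their values were seen. In ATP11A/C KD cells 2 of the 16 were higher and 10 lower than in Parental cells (median -0.36), and in CDC50A KD cells 2 were higher and 9 lower (median -0.34). The shares over all tested genes were 17.4% higher and 20.2% lower in ATP11A/C KD, and 24.3% and 26.1% in CDC50A KD.

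Among the partners of Ciita on class II promoters, Rfx5 was higher in ORP5/8 KD cells, and Kat2b was lower in all 3 knockdowns. Of 14 tested genes of this list, 5 were higher and 2 lower in ORP5/8 KD than in Parental cells (median 0.13, against 0.02 over all genes). The count called higher was 9 with upper-quartile scaling, 8 in a fit of only these groups, and 3 without Parental library 3 or 4. The count called lower was between 1 and 3 over the alternatives. Over all tested genes 22% were called higher and 24.3% lower. Rfx5, the RFX subunit mutated in a form of bare lymphocyte syndrome in humans, was at 46.6 ± 1.87 CPM in ORP5/8 KD and 33.6 ± 0.85 CPM in Parental cells (SD, n = 4 each, log2 fold change 0.47 ± 0.0485, adjusted p = 6.15e-08). ORP5/8 KD cells also had more Rfx5 than ATP11A/C KD cells (0.50, adjusted p = 3.74e-08) and CDC50A KD cells (0.63, adjusted p = 7.37e-10). It was lower in CDC50A KD than in Parental cells (-0.16, adjusted p = 0.00954) and not called in ATP11A/C KD cells (-0.03, adjusted p = 0.692). Of the other RFX subunits, Rfxap was not called in ORP5/8 KD (0.25, adjusted p = 0.0777) but was higher than Parental in CDC50A KD cells (0.71, adjusted p = 2.14e-05). It was also called higher in ATP11A/C KD cells (0.36, adjusted p = 0.0152), a call lost without Parental library 4 (adjusted p = 0.0626). Rfxank was higher than Parental in ORP5/8 KD (0.28, adjusted p = 0.0176), ATP11A/C KD (0.27, adjusted p = 0.0319) and CDC50A KD cells (0.28, adjusted p = 0.0191), and each of these calls was lost without Parental library 3 or 4 (adjusted p = 0.0545 to 0.0923). Leaving out Parental library 1 or ATP11A/C KD library 1 also ended the call in ATP11A/C KD (adjusted p = 0.0637 and 0.123), and leaving out CDC50A KD library 1 or 3 that in CDC50A KD (adjusted p = 0.0508 and 0.083). Among NF-Y subunits Nfyc was higher in ORP5/8 KD cells by 0.15 (adjusted p = 0.00764). Nfya was lower there by a small margin (-0.09, adjusted p = 0.0423), a call lost in most alternatives that left out 1 library. Nfyc was also higher in ATP11A/C KD (0.23, adjusted p = 0.000407) and CDC50A KD cells (0.35, adjusted p = 1.59e-06), and Nfya lower in CDC50A KD cells (-0.17, adjusted p = 0.000943). Next to these, the acetyltransferase gene Kat2b was lower in ORP5/8 KD cells (log2 fold change -0.59 ± 0.0611, adjusted p = 6.45e-08). It was lower than Parental in ATP11A/C KD (-0.49, adjusted p = 1.49e-06) and CDC50A KD cells (-0.75, adjusted p = 2.96e-09) too. In ATP11A/C KD cells 6 of the 14 were higher and 1 lower than in Parental cells (3 higher without Parental library 4, 4 without Parental library 3, 4 without ATP11A/C KD library 1), and in CDC50A KD cells 7 were higher and 3 lower. Of all tested genes, 17.4% were called higher and 20.2% lower in ATP11A/C KD, and 24.3% and 26.1% in CDC50A KD.

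Known regulators of the Ciita promoters were called lower more often than higher in ORP5/8 KD cells. Of 24 tested genes, 4 were higher and 12 lower than in Parental cells, with a median log2 fold change of -0.17 (0.02 over all genes). Of all tested genes 22% were called higher and 24.3% lower in ORP5/8 KD, so the share higher is near the background. Irf1, a transcription factor of the interferon-inducible Ciita promoter, fell by 0.84 on the log2 scale (adjusted p = 4.76e-10), and Socs1, a feedback inhibitor of interferon signalling, fell by 1.88 (adjusted p = 1.26e-06). Irf1 was lower than Parental in the other knockdowns too, with log2 fold changes of -0.61 (ATP11A/C KD) and -0.69 (CDC50A KD). Neither Socs1 nor Ciita was called different from Parental in those cells. Whether Irf1 or Socs1 has a part in the Ciita difference was not tested. Tgfbr1, a receptor of TGF-β, was higher in ORP5/8 KD cells by 0.58 (adjusted p = 1.03e-08). Smad3 was not called there (0.08, adjusted p = 0.388) and Mitf fell by 0.23 (adjusted p = 0.00302). In ATP11A/C KD and CDC50A KD cells Tgfbr1 (0.29 and 0.22) and Smad3 (0.55 and 0.6) were higher than Parental, and Mitf was lower (-0.45 and -0.69). Over this list 5 genes were higher and 9 lower in ATP11A/C KD, and 7 higher and 4 lower in CDC50A KD than in Parental cells. The shares over all tested genes were 17.4% higher and 20.2% lower in ATP11A/C KD, and 24.3% and 26.1% in CDC50A KD, so the counts for CDC50A KD are near the background.

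MHC class I genes and their transactivator Nlrc5 were measured beside class II because Nlrc5 uses much the same promoter complex. All 14 tested genes of this list were lower in ORP5/8 KD than in Parental cells (median -1.03), where 24.3% of all tested genes were called lower. Nlrc5 was at 23.3 ± 1.24 CPM in ORP5/8 KD and 51.1 ± 3.93 CPM in Parental cells (SD, n = 4 each, log2 fold change -1.13 ± 0.0661, adjusted p = 5.72e-12). The light chain gene B2m fell by 1.08, the classical heavy chain gene H2-K1 by 0.98 and the nonclassical H2-T23 by 1.93 on the log2 scale. In ATP11A/C KD cells 14 of the 14 were lower than in Parental cells (median -0.65) and in CDC50A KD cells 13 (median -0.34). Class I genes were therefore lower in all 3 knockdowns. H2-Ab1 and H2-DMa were called higher than Parental in all 3, and Ciita, H2-Aa and H2-Eb1 in ORP5/8 KD cells alone. Ciita, H2-Aa and H2-Eb1 were also higher in ORP5/8 KD cells than in each of the other knockdowns. Like H2-Ab1, they passed the low-count filter only through the ORP5/8 KD libraries, so their calls there are a description.

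Costimulatory and checkpoint genes, which act beside class II at the contact with T cells, gave 2 higher and 6 lower of 8 tested in ORP5/8 KD against Parental cells (median -0.71, against 0.02 over all genes), where 22% of all genes were called higher and 24.3% lower. The share higher is near the background. Cd86, a ligand of CD28, was higher at 7 ± 0.376 CPM in ORP5/8 KD and 3.95 ± 0.162 CPM in Parental cells (SD, n = 4 each, log2 fold change 0.83 ± 0.0919, adjusted p = 1.99e-07). Cd83, known in dendritic cells to keep class II at the surface, was higher by 0.77 (adjusted p = 2.91e-10), as it was in ATP11A/C KD (0.78) and CDC50A KD cells (0.55). Cd40 fell to 0.483 ± 0.117 CPM in ORP5/8 KD cells, against 7.4 ± 1.07 CPM in Parental cells (log2 fold change -3.93 ± 0.198, adjusted p = 4.77e-13). Cd274, which encodes PD-L1, fell by 0.91, Tnfsf9 by 0.76 and the adhesion gene Icam1 by 0.95. Cd40, Cd274 and Icam1 were called lower than Parental in the other knockdowns too. Log2 fold changes of these 3 genes were -1.31, -0.91 and -0.3 for ATP11A/C KD, against -1.08, -1.52 and -0.22 for CDC50A KD. Tnfsf9 was instead called higher for ATP11A/C KD (0.18, adjusted p = 0.0302), a call lost without Parental library 1 (adjusted p = 0.0745). It was not called for CDC50A KD (0.15, adjusted p = 0.0551). In ATP11A/C KD cells 3 of 8 were higher and 4 lower than in Parental cells, with 1 higher without Parental library 1 (17.4% and 20.2% of all genes). In CDC50A KD cells 1 was higher and 6 lower (24.3% and 26.1% of all genes), with 1 to 2 higher and 4 to 6 lower over the alternatives.

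**Figure D4:**
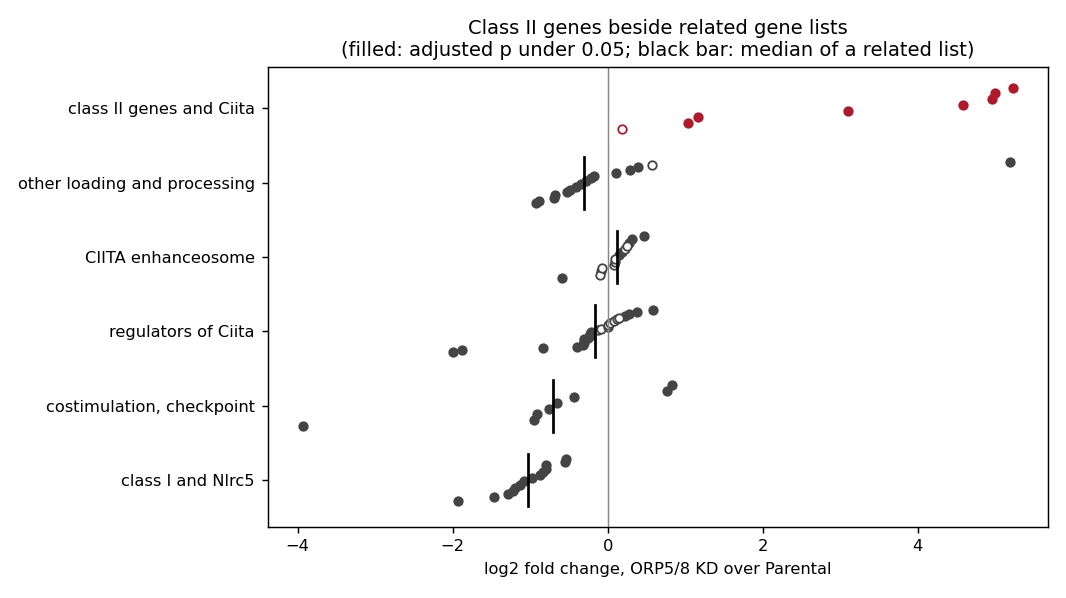
Log2 fold change in ORP5/8 KD over Parental cells (horizontal axis) of the 8 genes described here (top) and of the tested genes of 5 related lists; filled points have an adjusted p under 0.05 and black bars are medians of the related lists. Those 8 lie at or right of 0.18, while all 14 genes of the class I list are left of 0, with a median of -1.03.

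Markers of other cells that carry class II were looked up. Macrophage markers were present in all groups, with 9 of 10 at 1 CPM or more, and their summed level was 7560 to 7980 CPM in ORP5/8 KD, 6390 to 6760 in ATP11A/C KD, 7420 to 7720 in CDC50A KD and 11700 to 12400 in Parental libraries. Of 8 B lymphocyte markers none reached 1 CPM, and Ms4a1 and Blk had 0 counts in all 16 libraries. Their sum was 0.0805 to 0.131 CPM in ORP5/8 KD and 0 to 0.0904 CPM in Parental libraries, below the level of the chain genes in ORP5/8 KD. Of 8 dendritic cell markers, Flt3, Cd209a and Ccr7 had 0 counts throughout, and the sum was 5.04 to 5.91 CPM in ORP5/8 KD and 4.94 to 5.91 CPM in Parental libraries. Within that list Siglech was higher in all knockdowns, at 0.518 ± 0.283 CPM in ORP5/8 KD and 0.106 ± 0.0952 CPM in Parental cells (SD, n = 4 each, adjusted p = 0.00195). Itgax was lower than Parental in ATP11A/C KD (-1.17, adjusted p = 1.74e-05) and CDC50A KD cells (-2.14, adjusted p = 1.45e-08). It was not called in ORP5/8 KD cells (-0.17, adjusted p = 0.414). Zbtb46 was called only in ATP11A/C KD, as higher (0.48, adjusted p = 0.0218), and Xcr1 in no knockdown. Of 6 T lymphocyte markers Cd3e, Cd3g and Cd8a had 0 counts, and the sum, 32.3 to 36.5 CPM in ORP5/8 KD and 18.4 to 19.5 CPM in Parental libraries, came mostly from Cd28. The part that these marker differences have in the class II results was not tested.

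The genes whose levels ran most like Ciita over the 16 libraries were Entpd1 (Pearson r = 0.981 of log2 CPM), Card14 (0.976), Hadh (0.975), Ndst1 (0.972), Khk (0.972) and Pdcd4 (0.97), out of 10531 protein-coding genes compared. Card14 was at 7.86 CPM in ORP5/8 KD, 0.475 in ATP11A/C KD, 0.272 in CDC50A KD and 0.51 in Parental cells on average, and Ndst1 at 36.7, 4.5, 4.6 and 8.08 CPM in the same order. Of the class II genes, H2-Aa had r = 0.967 with Ciita, H2-Eb1 0.965, H2-Ab1 0.89, H2-DMb1 0.89, H2-DMa 0.701, H2-DMb2 0.417 and Cd74 -0.235. H2-Ab1 ran most like Cxxc5 (0.993), Rell1 (0.981), Plxnc1 (0.979), Zer1 (0.973), Adgrl1 (0.97) and Atg2b (0.968). Cxxc5 was at 12.6 CPM in ORP5/8 KD, 2.93 in ATP11A/C KD, 3.06 in CDC50A KD and 2.08 in Parental cells, which is the order of groups that H2-Ab1 showed except for the unseparated middle pair. These coefficients describe the same 16 libraries in 4 groups and carry the group differences already given, so they have no p.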

How the data were processed

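RNA was sequenced in 16 libraries of 4 groups. Per the labels' protocols, RNA was made into stranded mRNA libraries. Per the submitters' processing notes, the tools were Trim Galore 0.5.0, STAR 2.7.5a, Picard and RSEM, with the build mm10. The authors deposited RSEM expected counts per gene, 4.63% of which carry decimals. These were rounded to whole numbers, 92 spike-in records with no counts were left out, and filterByExpr set the low-count filter (minimum count 10, about 0.278 CPM). One fit of edgeR 4.0.16 (R 4.3.3, limma 3.58.1) over all libraries, with TMM scaling and the quasi-likelihood test, served the 6 comparisons. DESeq2 1.42.0 was an alternative. The fit was tested on simulated data. Coordinates and exon lengths came from GENCODE M21 of mm10. Library totals were 24020891 to 41543050, and intervals and limits at 0 (3 counts) cover counting error only. Same-numbered libraries of different groups did not deviate together (r from -0.166 to 0.105 over 24 pairs, 2 of them over 0.1), so no pairing by number was detected. These coefficients cannot show whether same-numbered libraries were handled together. No 2 replicates agreed within sampling noise.

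The 8 genes and the related lists were chosen with earlier results of these data known. All 8 are named. From each list the text names up to 6 genes with the smallest adjusted p among those called against Parental, plus others it says were picked later or that it gives as values. Some genes of the lists are not reported here by name. Likeness used log2 CPM with a prior count of 2, over protein-coding genes whose highest group mean was 1 CPM or more.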

Additional observations from a re-analysis of the deposited data

Results flagged for a closer look

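In 4 of 31 sets of 4 libraries tested, 1 library lay apart from the rest by Dixon's criterion at the 95% level, which chance meets in about 1 of 20 sets of continuous values. In 3 of the 4 sets the other libraries had 0 counts, where any count at all meets the criterion, so that rate does not apply to them. All 4 are single libraries with 1 to 5 counts of a class II chain gene where the others had at most 1. H2-Aa was at 0.0742 CPM (3 counts) in ATP11A/C KD library 1 and had 0 counts in the other 3, and it was at 0.0255 CPM (1 count) in CDC50A KD library 4, again with 0 in the others. H2-Eb1 was at 0.0515 CPM (2 counts) in CDC50A KD library 1, the only CDC50A KD library with any. H2-Eb1 was at 0.18 CPM (5 counts) in Parental library 3, just past the criterion. That library carried the call of H2-Eb1 as lower in ATP11A/C KD than in Parental cells, which was lost without it (adjusted p = 0.154).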

How the results depend on the processing

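Counts of genes and members called kept within 1.5 times of the reported value in 285 of 288 alternatives, and the 32 levels moved by less than 1 SD with DESeq2 size factors. In a fit of only the compared groups, 3 of the 8 genes passed the filter for ATP11A/C KD against Parental and 2 were called, in place of 4. With 1 library left out, 0 to 1 of the 8 were called between CDC50A KD and ATP11A/C KD and 3 to 5 between CDC50A KD and Parental. Between CDC50A KD and ATP11A/C KD, where none of the 8 was called, log2 fold changes crossed 0 with 1 library left out: H2-Aa -2.75 to 1.63, H2-Ab1 -0.32 to 0.03, Ciita -1.12 to 0.21 and H2-DMb1 -0.03 to 1.47. The cause was not tested. With the replicate number as a block, ORP5/8 KD against Parental gave 5961 called genes in place of 6059. The block ended the call of H2-Eb1 in ATP11A/C KD against Parental (log2 fold change -4.06, adjusted p = 0.0557) and changed no other member's call. H2-DMa, which passed the low-count filter in all groups, was called higher in ORP5/8 KD than in Parental cells in every alternative (log2 fold change 1.02 to 1.09 with 1 library left out). No member fell below the low-count filter, so the permutation tests planned for such members and their alternatives gave no value. Low counts limit Ciita, H2-Aa, H2-Eb1 and H2-DMb1 outside ORP5/8 KD, and H2-Ab1 in Parental cells (9 counts in all).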
